A study of Mus musculus with 15 samples.

Results

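Transcripts of 14 lens genes and 16 photoreceptor genes were followed through RNA sequencing libraries of mouse cornea, a tissue that lies in front of the lens and holds no photoreceptors. The 30 genes were listed by name as classical lens or photoreceptor genes and were looked up by symbol among the 55357 gene identifiers of the count files. The study compared corneas of mice heterozygous for Opa1 (OPA1+/-), which encodes a mitochondrial inner-membrane fusion protein, with corneas of OPA1+/+ mice at 2 ages. The groups were OPA1+/- at 6 months (4 libraries), OPA1+/+ at 6 months (3 libraries), OPA1+/- at 3 months (4 libraries) and OPA1+/+ at 3 months (4 libraries). The labels give neither how the Opa1 allele was made, nor the sex of the mice, nor whether each library came from a separate animal or from a pool, so the p-values below measure the spread between these libraries. Gene-assigned counts ran from 11673240 to 18194946 per library, and levels are given as CPM, a count scaled by its library's total and by the trimmed mean of M-values. A floor of 3 counts corresponded to 0.165 to 0.256 CPM, and all intervals and floors below cover counting error only. Opa1 was lower in OPA1+/- at both ages (log2 fold change -0.53 at 6 months and -0.41 at 3 months, adjusted p 0.000623 and 0.0193 by edgeR's quasi-likelihood test), and the corneal keratin Krt12 was at 26110 to 32910 CPM in all 15 libraries.

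The lens is a bag of elongated fibre cells filled with crystallins. Alpha-crystallins are small heat-shock chaperones, and beta- and gamma-crystallins are packed structural proteins that give the fibre its refractive index. Fibre cells also carry a lens-specific beaded filament, a water channel, and gap junctions that serve a tissue without vessels. Cryab is the exception in the list, since many tissues, cornea included, make it as a stress chaperone. Rod photoreceptors turn light into a voltage change through transducin, a phosphodiesterase that breaks down cyclic GMP, and a cyclic-nucleotide-gated channel. Arrestin ends the response, and the visual pigment sits in stacked discs whose rims are held by a pair of tetraspanins. The transcription factors Nrl and Crx switch this programme on. Gnb1, the transducin beta subunit of rods, serves many other G proteins and is made nearly everywhere. Neither a lens nor a retina is part of a dissected cornea, and in bulk libraries fewer cells of a type and less RNA per cell cannot be told apart.

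The promoters of the listed genes differed by tissue in the motifs they held, and 3 are shown because Cryaa and Cryba1 follow the lens-rich libraries described below and Sag the photoreceptor-rich ones. RefSeq windows of 300 bases around the start site on GRCm38.p6 were matched for 24 of the 30 genes (13 lens genes in 14 windows and 11 photoreceptor genes in 11 windows). The MAF-type motif TGCTGA, part of the element that MAF factors of the lens and NRL of rods can bind, was in 10 of 14 lens windows (71.4%), 2 of 11 photoreceptor windows (18.2%) and 19.5% of all 32851 windows. The CRX-type motif TAATCC, which holds the core bound by CRX and OTX factors, was in 2 of 14 lens windows (14.3%), 5 of 11 photoreceptor windows (45.5%) and 7.06% of all windows. Each motif was searched on both strands, the 2 motifs cannot share bases, and a match is a string of letters, not a bound site. The 250 bases before the start site are given 5′ to 3′ on the gene's own strand, with matches to either motif in capitals.
Cryaa, chr17:31677681-31677930, plus strand: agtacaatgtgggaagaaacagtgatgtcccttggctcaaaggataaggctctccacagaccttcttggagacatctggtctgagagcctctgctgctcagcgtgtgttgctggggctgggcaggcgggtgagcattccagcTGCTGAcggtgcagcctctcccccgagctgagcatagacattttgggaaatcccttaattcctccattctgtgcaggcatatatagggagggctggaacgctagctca
Cryba1, chr11:77725294-77725543, minus strand: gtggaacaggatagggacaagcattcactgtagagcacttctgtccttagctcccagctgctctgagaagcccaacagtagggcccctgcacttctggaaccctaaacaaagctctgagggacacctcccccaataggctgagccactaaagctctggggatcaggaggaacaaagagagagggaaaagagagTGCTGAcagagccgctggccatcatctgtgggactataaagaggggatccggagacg
Sag, chr1:87803430-87803679, plus strand: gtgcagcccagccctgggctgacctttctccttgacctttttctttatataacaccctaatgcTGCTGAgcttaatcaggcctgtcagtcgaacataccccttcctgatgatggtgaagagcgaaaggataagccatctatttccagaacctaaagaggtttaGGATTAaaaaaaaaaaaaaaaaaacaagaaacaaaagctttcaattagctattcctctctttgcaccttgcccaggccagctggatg
Cryaa and Cryba1 each held 1 MAF-type motif and no CRX-type motif in these bases, and Sag held 1 of each, its CRX-type motif reading GGATTA because it lies on the other strand.

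Counts of some lens and some photoreceptor genes were found in all 15 cornea libraries at low levels, and a few libraries stood far apart from the rest. Summed lens and summed photoreceptor levels were taken over 13 and 15 genes, leaving out Cryab and Gnb1. At 6 months the summed lens level was 7.61, 7.15, 9.48 and 10.4 CPM in OPA1+/- replicates 1 to 4, against 6.93, 14.6 and 9.87 CPM in OPA1+/+ replicates 1 to 3. The 3-month values were 18.3, 7.04, 37.3 and 124 CPM in OPA1+/-, against 16.7, 7.69, 7.71 and 27.3 CPM in OPA1+/+. Replicate 4 of OPA1+/- at 3 months was 17.9 times the lowest library, and the groups overlapped at both ages. The low end of the sum was set by Bfsp1 and Crybb3, which had a count in every library. Together they made up 6.43 of 7.04 CPM in replicate 2 of OPA1+/- at 3 months and 6.48 of 6.93 CPM in replicate 1 of OPA1+/+ at 6 months. The other 11 lens genes summed to 0.612 and 0.452 CPM in these libraries, and to 116 CPM in replicate 4 of OPA1+/- at 3 months.

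The summed photoreceptor level followed another pattern. At 6 months it was 12.7, 12.6, 13.1 and 22.0 CPM in OPA1+/- replicates 1 to 4, against 112, 11.3 and 11 CPM in OPA1+/+ replicates 1 to 3. The 3-month values were 16, 11.5, 16.2 and 115 CPM in OPA1+/-, against 13.3, 18.7, 10.4 and 21.3 CPM in OPA1+/+. Replicate 4 of OPA1+/- at 3 months and replicate 1 of OPA1+/+ at 6 months thus held nearly the same photoreceptor sum, 8.73 and 8.55 times the median of the other 13 libraries (13.1 CPM). The same pair differed in lens transcripts: replicate 4 of OPA1+/- at 3 months was at 12.6 times the median of the other 13 libraries (9.87 CPM), while replicate 1 of OPA1+/+ at 6 months was at 0.702 times that median, with the lowest lens sum of all, most of it Bfsp1 and Crybb3. Replicate 4 of OPA1+/- at 3 months also had the highest library total (18194946 counts), and the part of depth in its sums was not tested. Even there the listed lens genes took 0.0124% of the counts and the listed photoreceptor genes 0.0115%. Each high library sat in a different group, so group means carried a spread as large as themselves. The photoreceptor sum averaged 15.1 ± 4.59 CPM in OPA1+/- (SD, n = 4) and 44.9 ± 58.4 CPM in OPA1+/+ (SD, n = 3) at 6 months, and 11.2 ± 0.217 CPM in OPA1+/+ without replicate 1 (SD, n = 2). At 3 months it averaged 39.6 ± 50.1 CPM in OPA1+/- and 15.9 ± 4.96 CPM in OPA1+/+ (SD, n = 4 each), and 14.6 ± 2.67 CPM in OPA1+/- without replicate 4 (SD, n = 3). The lens sum averaged 8.66 ± 1.54 CPM in OPA1+/- (SD, n = 4) and 10.5 ± 3.84 CPM in OPA1+/+ (SD, n = 3) at 6 months. At 3 months it averaged 46.7 ± 53.2 CPM in OPA1+/- and 14.9 ± 9.34 CPM in OPA1+/+ (SD, n = 4 each), and 20.9 ± 15.3 CPM in OPA1+/- without replicate 4 (SD, n = 3).

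**Figure D1:**
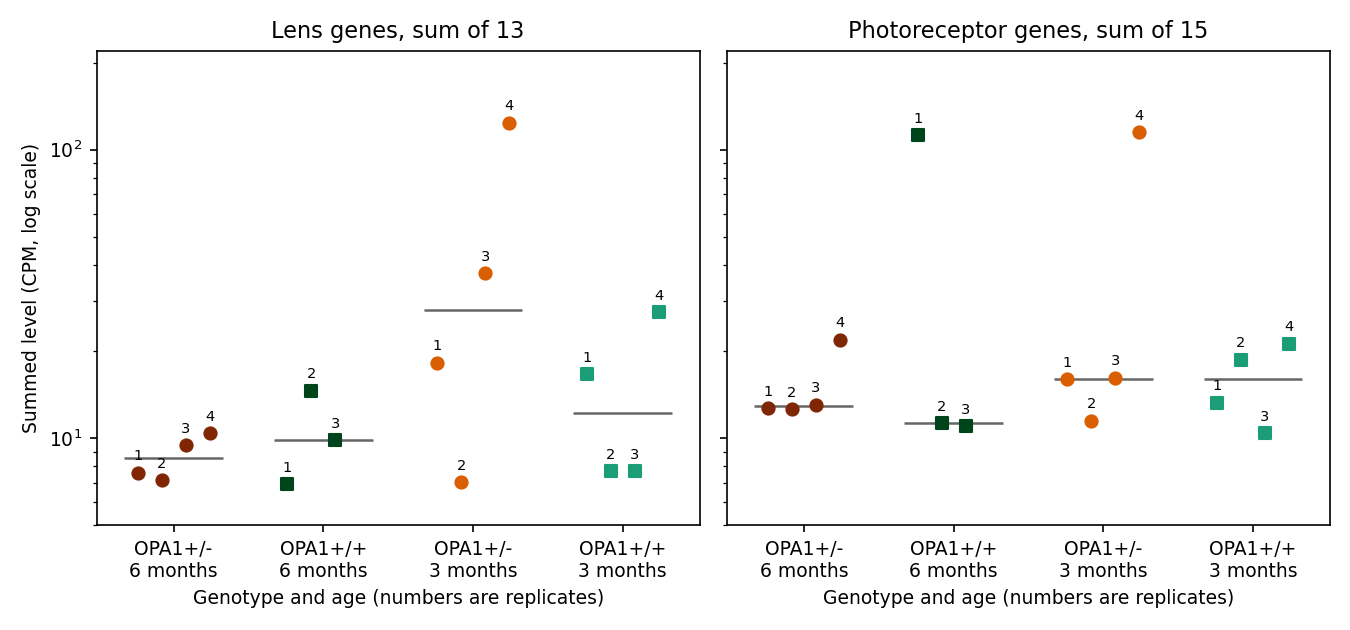
Summed level of the listed lens genes and photoreceptor genes in each library, in CPM on a log axis, by group; numbers are replicates and lines are group medians. The 2 highest photoreceptor sums, 115 and 112 CPM, belong to an OPA1+/- library at 3 months with 124 CPM of lens transcripts and to an OPA1+/+ library at 6 months with 6.93 CPM.

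Among the crystallins, Cryaa, the lens alpha-crystallin (chromosome 17, 31896781 to 31900707, plus strand), ranged widely between libraries. At 6 months it was at 0.226, 0.384, 1.8 and 2.82 CPM in OPA1+/-, against 0.0754, 4.33 and 1.4 CPM in OPA1+/+. At 3 months Cryaa was at 3.39, 0, 13.9 and 56.5 CPM in OPA1+/-, against 4.73, 1.02, 0.236 and 7.16 CPM in OPA1+/+. Both ages had overlapping genotypes, and OPA1+/- at 3 months alone ran from no count to 1029 counts. Crybb2, a beta-crystallin (chromosome 5, 113206124 to 113217983, minus strand), moved in the same libraries. At 6 months it was at 0.527, 0.231, 0.934 and 0.704 CPM in OPA1+/-, against 0, 1.94 and 1.55 CPM in OPA1+/+. At 3 months Crybb2 was at 2.66, 0, 6.27 and 23.5 CPM in OPA1+/-, against 2.45, 0.218, 0 and 7.5 CPM in OPA1+/+. The low end of each group was 0 or a few counts, so the genotypes again overlapped at both ages. Cryba1, the beta-crystallin shown above (chromosome 11, 77609441 to 77616109, minus strand), ranged from 0 to 12.6 CPM, and Mip, the lens fibre water channel, from 0 to 5.43 CPM. The structural crystallins Crygs, Cryba2 and Cryba4 ranged from 0 to 5.65, 5.54 and 3.51 CPM. For 10 of the 13 lens genes with any count the highest library was replicate 4 of OPA1+/- at 3 months, and for 7 of these 10 the next was replicate 3 of the same group.

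The other lens genes behaved differently. Cryab (chromosome 9, 50662625 to 50667936, plus strand) was the most abundant lens gene per kilobase of exon, with a mean of 28.6 CPM per kb against 3.14 for Cryaa, 1.64 for Bfsp1 and 1.61 for Crybb2. At 6 months Cryab was at 35.6, 41.7, 36.5 and 35 CPM in OPA1+/-, against 43.7, 34.3 and 38.9 CPM in OPA1+/+. At 3 months Cryab was at 63.1, 49.5, 40.2 and 52.4 CPM in OPA1+/-, against 40, 31.4, 44.6 and 48.2 CPM in OPA1+/+. Its genotypes overlapped at both ages, and replicate 2 of OPA1+/- at 3 months, with no Cryaa count, had 49.5 CPM of Cryab. Bfsp1, the beaded-filament protein filensin, was also even. At 6 months Bfsp1 was at 4.59, 4.15, 4.02 and 3.44 CPM in OPA1+/-, against 4.45, 2.91 and 3.11 CPM in OPA1+/+. At 3 months Bfsp1 was at 4.25, 4.36, 3.45 and 4.61 CPM in OPA1+/-, against 3.21, 3.05, 4.96 and 4.09 CPM in OPA1+/+. Bfsp1 therefore spanned less than a doubling over all 15 libraries. Its log2-level correlation to the sum of the other lens genes was -0.149 over 15 libraries, where Cryba1 had 0.906 and Crygs 0.932. Each gene was left out of the sum it was set against, Cryab was in no sum, and members share their library. Crybb3 (chromosome 5, 113223705 to 113229450, minus strand), the neighbour of Crybb2, ranged from 1.34 to 4.06 CPM and had a count in every library, unlike Crybb2. Crybb3 was less even than Bfsp1: it was highest in replicate 4 of OPA1+/- at 3 months. Its correlation to the sum of the other lens genes was 0.699 over 15 libraries, and 0.426 over the 13 without the 2 highest photoreceptor sums. The biological coefficient of variation, edgeR's estimate of spread between replicates, was 1.43 for Cryaa, 1.59 for Crybb2 and 1.63 for Cryba1, but 0.19 for Crybb3, 0.138 for Cryab and 0.129 for Bfsp1, beside 0.0861 for the median gene.

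The remaining lens genes were at the edge of detection. Crybb1, a beta-crystallin, ranged from 0 to 1.92 CPM, Bfsp2, the other beaded-filament protein, from 0 to 0.548 CPM, and Gja3, a fibre-cell connexin, from 0 to 0.494 CPM. Lim2, a fibre membrane protein, had no count in any library, but 65.9% of its exon bases are shared on the same strand with other gene identifiers of the annotation, whose reads the counting leaves unassigned. Only 3 of the 14 lens genes, Cryab, Crybb3 and Bfsp1, had a count in all 15 libraries. Of lens genes outside the list, Cryga, Cryge, Crygf and Dnase2b, the nuclease that clears fibre nuclei, had no count anywhere. The near-identical gamma-crystallin genes may have lost reads to multiple mapping. Cryga also shares 47.9% of its exon bases on the same strand with another gene identifier.

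**Figure D2:**
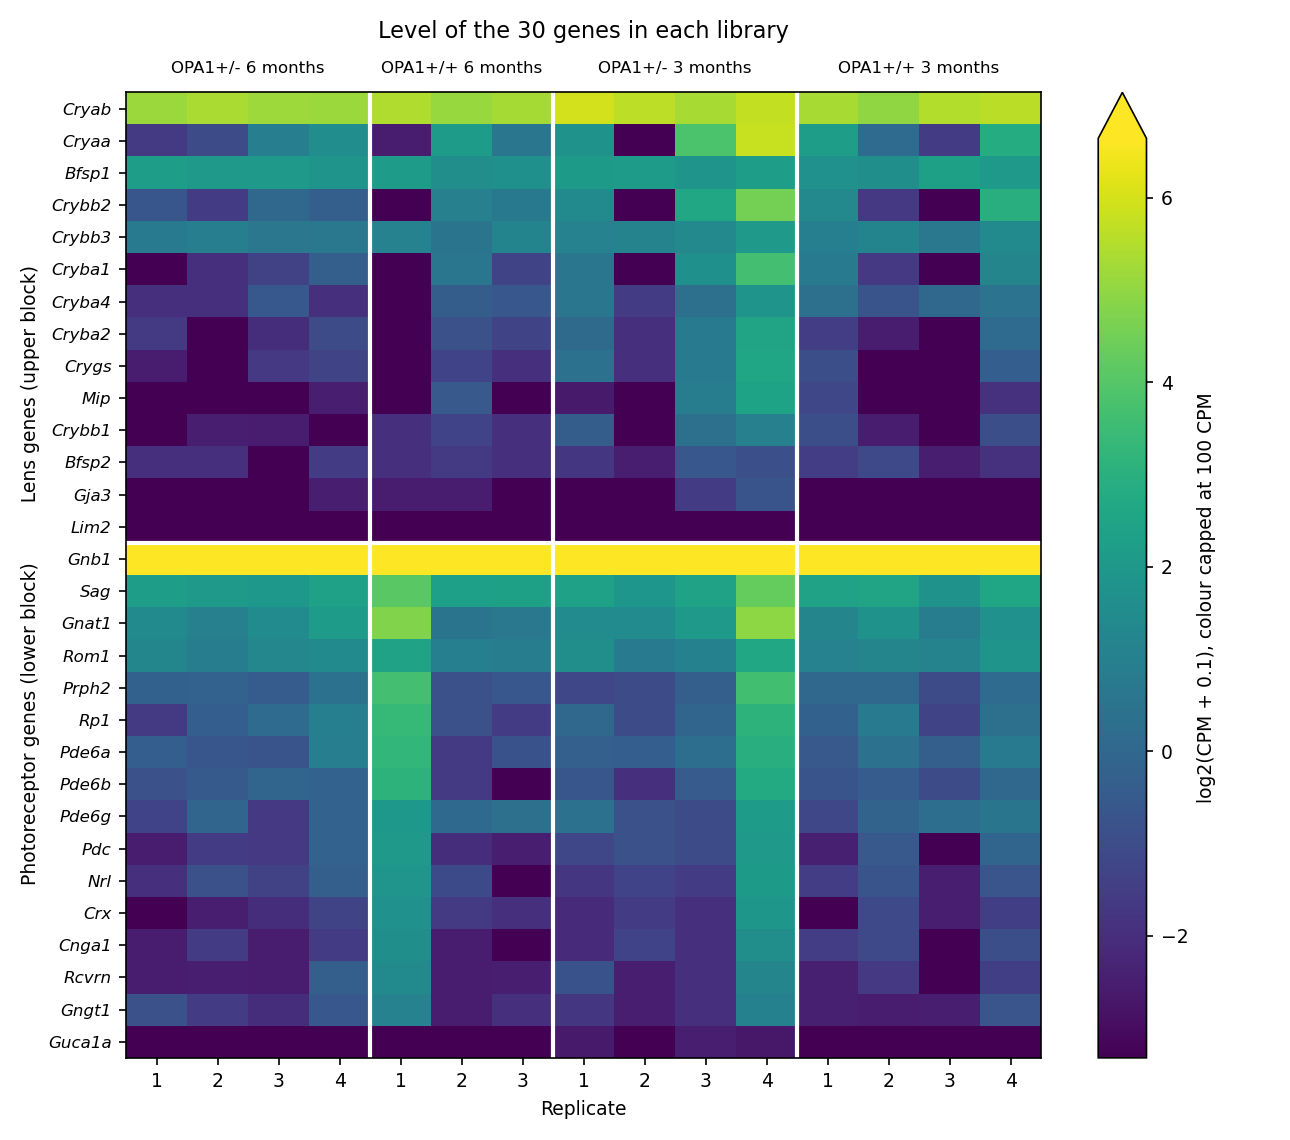
Level of each lens and photoreceptor gene in each library, as log2(CPM + 0.1) with the colour capped at 100 CPM, libraries in columns by group and genes in lines. Most lens genes are brightest in replicate 4 of OPA1+/- at 3 months, the photoreceptor genes there and in replicate 1 of OPA1+/+ at 6 months, while Cryab, Bfsp1 and Gnb1 are even across libraries.

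Among photoreceptor genes of the light response, Gnat1, the alpha subunit of rod transducin (chromosome 9, 107551673 to 107556911, minus strand), had the highest mean level per kilobase of exon after Gnb1. At 6 months it was at 2.64, 1.92, 2.73 and 4.46 CPM in OPA1+/-, against 26.9, 1.34 and 1.48 CPM in OPA1+/+. At 3 months Gnat1 was at 2.72, 2.68, 3.99 and 30.6 CPM in OPA1+/-, against 2.19, 3.41, 1.73 and 3.15 CPM in OPA1+/+. Each age had 1 library far above the others, and at 6 months all 4 OPA1+/- libraries lay above OPA1+/+ replicates 2 and 3 and below replicate 1. Gnb1, its beta subunit, was the contrast. At 6 months Gnb1 was at 421, 403, 422 and 408 CPM in OPA1+/-, against 410, 396 and 402 CPM in OPA1+/+. At 3 months Gnb1 was at 401, 405, 412 and 431 CPM in OPA1+/-, against 392, 402, 411 and 420 CPM in OPA1+/+. The genotypes overlapped at both ages, and its biological coefficient of variation, 0.0483, was below that of the median gene, against 0.924 for Gnat1. Per kilobase of exon Gnb1 had a mean of 95.9 CPM, against 2.02 for Gnat1. The gamma subunit Gngt1 reached 2.03 CPM. The phosphodiesterase subunits reached 9.64 CPM (Pde6a, catalytic), 8.59 CPM (Pde6b, catalytic) and 4.28 CPM (Pde6g, inhibitory), and the channel subunit Cnga1 reached 3.01 CPM. Sag, the rod arrestin that ends the light response (chromosome 1, 87731402 to 87772880, plus strand), had a count in all 15 libraries. It was at 19.6 CPM in replicate 4 of OPA1+/- at 3 months and at 17 CPM in replicate 1 of OPA1+/+ at 6 months, and between 3.38 and 5.71 CPM in the other 13. Recoverin (Rcvrn), which regulates visual pigment phosphorylation, reached 2.64 CPM, and phosducin (Pdc), which binds transducin beta and gamma, 4.14 CPM. Guca1a, a guanylate cyclase activator, had 3 counts in all, and 83.7% of its exon bases are shared with another identifier.

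Genes of the outer segment and of rod identity stood high in the same pair of libraries. Rom1 and Prph2 are the tetraspanins of the disc rim. At 6 months Rom1 (chromosome 19, 8904755 to 8906720, minus strand) was at 2.26, 1.77, 2.37 and 2.58 CPM in OPA1+/-, against 5.2, 1.87 and 1.71 CPM in OPA1+/+. At 3 months Rom1 was at 2.92, 1.61, 1.96 and 6.15 CPM in OPA1+/-, against 2.03, 2.25, 2.12 and 3.49 CPM in OPA1+/+. Prph2 (chromosome 17, 47221385 to 47235859, plus strand) differed more between libraries. At 6 months Prph2 was at 0.753, 0.769, 0.646 and 1.25 CPM in OPA1+/-, against 12.5, 0.448 and 0.544 CPM in OPA1+/+. At 3 months Prph2 was at 0.332, 0.383, 0.705 and 12.1 CPM in OPA1+/-, against 0.928, 0.944, 0.393 and 1.02 CPM in OPA1+/+. The genotypes of both genes overlapped at both ages. The high libraries were 2.89 and 2.45 times the median of the other 13 for Rom1 but 17.2 and 17.7 times for Prph2 (replicate 4 of OPA1+/- at 3 months first). Rp1, a protein of the outer-segment axoneme, reached 10.1 CPM, the rod factor Nrl 4.17 CPM and the photoreceptor factor Crx 3.73 CPM, while in the other 13 libraries Nrl reached 0.704 CPM and Crx 0.363 CPM. For 14 of the 16 photoreceptor genes the 2 highest libraries were this pair, the exceptions being Gnb1 and Guca1a.

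The 2 photoreceptor-rich libraries were set side by side gene by gene, with an exact binomial interval on the ratio of their CPM. All 14 photoreceptor genes with at least 20 counts between the libraries, Gnb1 left out, had a 95% interval that held 1. Replicate 4 of OPA1+/- at 3 months over replicate 1 of OPA1+/+ at 6 months gave a median ratio of 0.988, from 0.773 to 1.18. The pair was picked by the sums of these same genes, and those sums were nearly equal (115 and 112 CPM). A typical ratio near 1 therefore partly follows from that choice. Gnat1 had 1.14 (0.993 to 1.3), Sag 1.15 (0.974 to 1.37), Rom1 1.18 (0.868 to 1.62) and Prph2 0.97 (0.789 to 1.19). The lens genes gave no such match. Cryaa had 1029 counts in the OPA1+/- library and 1 in the OPA1+/+ library, a ratio of 749 with an interval of 134 to 29600. Crybb2 had 429 counts against 0, Cryba1 230 against 0, Crygs 103 against 0 and Mip 99 against 0. Bfsp1 had a ratio of 1.04 (0.734 to 1.47), Cryab 1.2 (1.08 to 1.33) and Crybb3 2 (1.27 to 3.23). Other retinal genes were at similar levels in this pair: of 20 further rod genes with enough counts 18 had an interval that held 1, of cone genes 3 of 3, and of inner retina genes 8 of 10. Some of these genes did not set the pair apart from the other 13 libraries. Tfap2b was at 0.943 and 0.97 times their median, Rbpms at 0.935 and 0.929, Reep6 at 1.22 and 1.1, and Cngb3 at 1.22 and 1.3. For such genes an interval that holds 1 tells nothing about the pair. Genes that did stand higher included the cone arrestin gene Arr3 (28 and 26 counts), the Müller glia gene Rlbp1 (32 and 23) and the amacrine cell enzyme Gad1 (13 and 15). All values are for replicate 4 of OPA1+/- at 3 months, then replicate 1 of OPA1+/+ at 6 months. The fascin gene Fscn2 (0.364, 0.135 to 0.902), the cyclase activator gene Guca1b (0.627, 0.485 to 0.808) and the bipolar cell genes Grm6 (0.46) and Trpm1 (0.728) lay below 1. Summed genes of the retinal pigment epithelium did not set the pair apart: they were at 6.8 CPM in the OPA1+/- library (rank 3 of 15) and at 3.84 CPM in the OPA1+/+ library, in a range of 3.84 to 7.04 CPM. Of these genes Best1 differed within the pair, at 3.29 and 1.13 CPM (ratio 2.91, 1.63 to 5.52), while the intervals of Rgr and Rdh5 held 1.

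**Figure D3:**
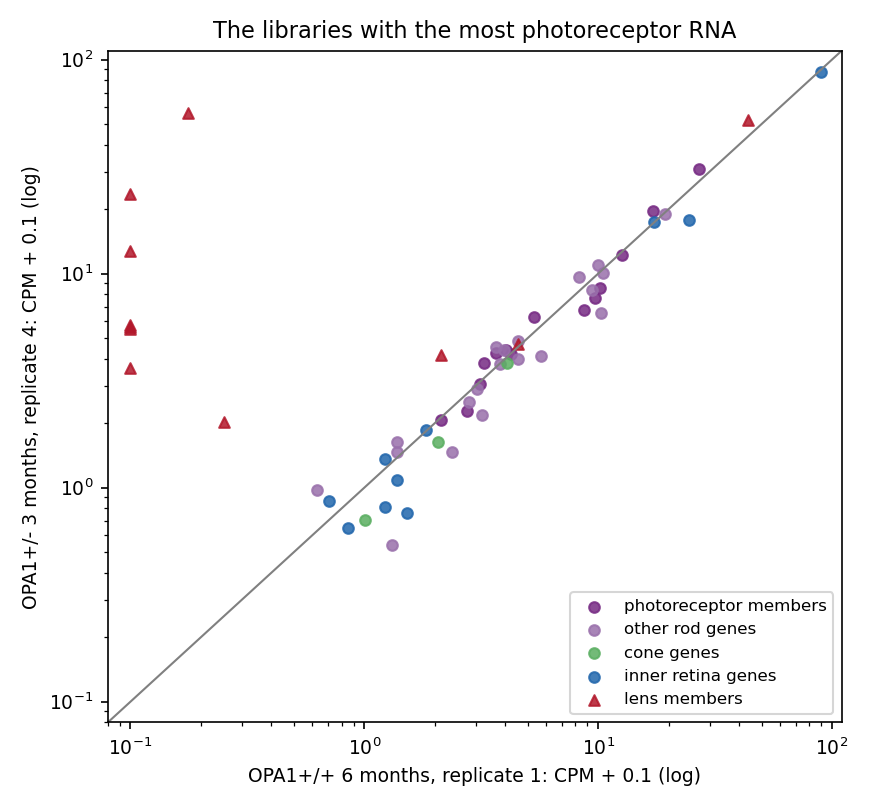
CPM plus 0.1 of each lens, photoreceptor, cone and inner retina gene in replicate 4 of OPA1+/- at 3 months (vertical) and replicate 1 of OPA1+/+ at 6 months (horizontal), on log axes with the line of equal levels. Photoreceptor genes lie along the line, with a median ratio of 0.988, and most lens genes lie far above it.

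Ratios between genes of a set showed how far its transcripts kept one proportion from library to library. Sag made up 39.1% of Sag plus Gnat1 counts in replicate 4 of OPA1+/- at 3 months (Wilson 95% interval 36 to 42.3) and 38.8% (34.9 to 42.8) in replicate 1 of OPA1+/+ at 6 months, but 53.7% to 78.3% in the other 13. Rom1 made up 33.6% (28.8 to 38.9) of Rom1 plus Prph2 in that OPA1+/- library, 29.4% (23.9 to 35.5) in that OPA1+/+ library and 67.3% to 89.8% in the other 13. Sag and Rom1 were thus the larger partner outside the pair and the smaller partner within it. Rp1 showed no such shift, with 21.8% of Rp1 plus Gnat1 in the OPA1+/- library of the pair, 27.3% in the OPA1+/+ library and 7.89% to 32.9% elsewhere. In the lens set the shares could be read where Cryaa and its partner had enough counts. Crybb2 made up 29.4% (27.1 to 31.8) of Crybb2 plus Cryaa in replicate 4 and 31.1% (25.8 to 37) in replicate 3 of OPA1+/- at 3 months, but 44% (34.2 to 54.2) in replicate 1 of that group and 51.2% (43.7 to 58.5) in replicate 4 of OPA1+/+ at 3 months. Mip made up 8.78% (7.26 to 10.6) and 11.1% (7.41 to 16.2) of Mip plus Cryaa in replicates 4 and 3 of OPA1+/- at 3 months, and 2.33% (0.64 to 8.09) in replicate 4 of OPA1+/+ at 3 months. Gamma-crystallin genes ran the other way, at 1.91% (1.24 to 2.93) and 1.67% (0.568 to 4.78) of their sum with Cryaa in replicates 4 and 3 of OPA1+/- at 3 months. They reached 26.1% (17.2 to 37.5) in replicate 1 of that group and 17.6% (11.5 to 26.2) in replicate 4 of OPA1+/+ at 3 months. Replicate 2 of OPA1+/+ at 6 months was at 31% for Crybb2, 12.1% for Mip and 0% (0 to 6.21) for gamma-crystallin genes. Replicate 1 of OPA1+/+ at 3 months was at 34.1%, 6.67% and 11.1% in that order. In OPA1+/- at 6 months replicate 3 was at 34.2%, 0% and 7.41%, and replicate 4 at 20%, 2.7% and 2.7%. Crybb2 was at 52.6% in replicate 3 of OPA1+/+ at 6 months. High Mip with low gamma-crystallin shares was thus not confined to OPA1+/-. Cryba1 made up 18.3% (16.2 to 20.5) and 18.4% (13.8 to 24.1) of Cryba1 plus Cryaa in replicates 4 and 3 of OPA1+/- at 3 months, 29.2% (19.9 to 40.5) in replicate 1 of that group and 23.6% (16.7 to 32.4) in replicate 4 of OPA1+/+ at 3 months. Between replicate 4 of OPA1+/- and replicate 4 of OPA1+/+ at 3 months the intervals were apart for Crybb2 and the gamma-crystallin genes and overlapped for Mip and Cryba1.

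**Figure D4:**
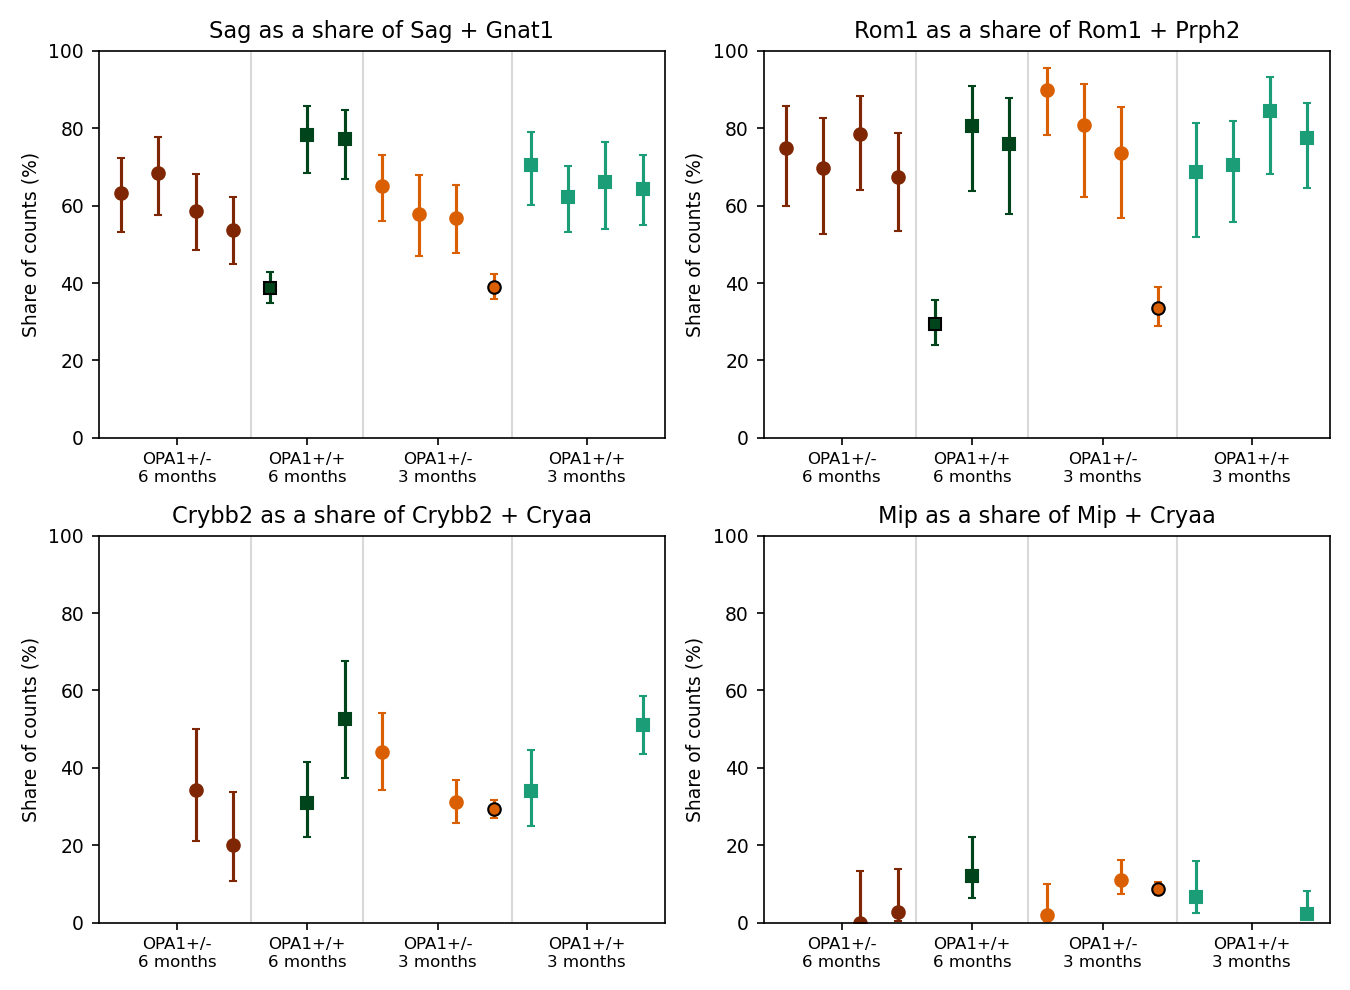
Share of counts taken by the first gene of a pair in each library, in percent with Wilson 95% intervals, by group, for libraries with enough counts of the pair. The black-rimmed points are the 2 libraries with the highest photoreceptor sums, where Sag is at 39.1% (OPA1+/-) and 38.8% (OPA1+/+) and Rom1 at 33.6% (OPA1+/-) and 29.4% (OPA1+/+).

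Genes outside the list that followed a set most closely were found by the Pearson correlation of their log2 CPM with the log2 sum, over 15 libraries that share depth with the sum. For the photoreceptor set Mir124a-1hg, the host transcript of a neuronal microRNA, had r = 0.97. Mir124a-1hg was at 6.97 CPM in replicate 4 of OPA1+/- at 3 months, 10 CPM in replicate 1 of OPA1+/+ at 6 months, and at 0.153 to 0.79 CPM elsewhere. Without the pair, over 13 libraries, its r was 0.766. Against the sum without the gene itself, Gnat1 had 0.965 over 15 libraries and 0.699 over 13, and Pde6g 0.748 and 0.0489. For the lens set the nearest were Fam3c (0.818), Slc9a7 (0.764), Xylt2 (0.759), Ndufa1 (0.741) and Snrpert (0.741), over 15 libraries each. Fam3c ranged from 9.68 to 15.5 CPM, Slc9a7 from 2.33 to 4.55 CPM, Xylt2 from 8.21 to 12.8 CPM, Ndufa1 from 11 to 14.8 CPM and Snrpert from 0.551 to 1.25 CPM. These ranges are close in width to those of the even members Bfsp1 and Cryab and far narrower than that of Cryaa.

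Of the 30 genes, 19 passed the filter on low counts and entered edgeR's quasi-likelihood test with 15770 genes (9 lens and 10 photoreceptor genes). The filter asks for enough counts in some libraries, so a gene could pass through its high libraries alone. Left out were Crybb1, Bfsp2, Mip, Lim2, Gja3, Gngt1, Cnga1, Nrl, Crx, Rcvrn and Guca1a. Every comparison uses a group that another comparison also uses. OPA1+/- and OPA1+/+ at 6 months were compared first. None of the 19 genes passed an adjusted p of 0.05 by edgeR, where 0.323% of all genes passed (51 of 15770), and 0 of the 19 had an unadjusted p under 0.05, against 1614 of all genes. DESeq2 called 0 of them but gave no adjusted p for 14 of the 19. Of the photoreceptor genes 9 of 10 were lower in OPA1+/-, with a median log2 fold change of -1.92 beside 0.00242 over all genes. Gnat1 averaged 2.94 ± 1.08 CPM in OPA1+/- (SD, n = 4) and 9.91 ± 14.7 CPM in OPA1+/+ (SD, n = 3), a log2 fold change of -1.76 ± 1.17 (SE) with an adjusted p of 0.662 by edgeR. Prph2 averaged 0.855 ± 0.27 and 4.5 ± 6.94 CPM in the same groups (-2.39 ± 1.43, adjusted p 0.614 by edgeR). The inhibitory subunit gene Pde6g was the exception to the overlap, at 0.301, 0.846, 0.215 and 0.782 CPM in OPA1+/-, against 3.92, 0.97 and 1.17 CPM in OPA1+/+ (-1.91 ± 0.89, adjusted p 0.491 by edgeR). The share of all genes whose genotypes did not overlap was not counted. Without replicate 1 of OPA1+/+ the direction turned: 8 of 10 photoreceptor genes were higher in OPA1+/-, with a median of 0.91 and Gnat1 at 1.05 ± 1.34. The lens genes had a median of -0.4 (8 of 9 lower in OPA1+/-), and Cryaa averaged 1.31 ± 1.23 CPM in OPA1+/- (SD, n = 4) and 1.93 ± 2.18 CPM in OPA1+/+ (SD, n = 3).

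At 3 months the listed genes leaned the other way between the same genotypes. None of the 19 passed by edgeR, where 0.00634% of all genes passed (1 of 15770, which was Opa1), and 3 lens and 0 photoreceptor genes had an unadjusted p under 0.05, against 1424 of all genes. DESeq2 called 0 of them but gave no adjusted p for 11 of the 19. All 9 lens genes were higher in OPA1+/-, with a median log2 fold change of 1.77, and all 10 photoreceptor genes, with a median of 1.43, beside 0.00299 over all genes. Cryaa averaged 18.4 ± 26 CPM in OPA1+/- and 3.28 ± 3.24 CPM in OPA1+/+ (SD, n = 4 each), a log2 fold change of 2.56 ± 1.23 (SE) with an adjusted p of 0.585 by edgeR. Gnat1 averaged 9.99 ± 13.7 CPM in OPA1+/- and 2.62 ± 0.792 CPM in OPA1+/+ (1.98 ± 1.11, adjusted p 0.645 by edgeR, n = 4 each). Crygs had the lowest adjusted p, 0.421 by edgeR, at 3.07 ± 1.03. Without replicate 4 of OPA1+/-, 8 of 10 photoreceptor genes were lower in OPA1+/- (median -0.24) and 7 of 8 lens genes still tested were higher (median 0.28), with Gnat1 at 0.24 ± 1.03 and Cryaa at 0.82 ± 1.19. The even genes moved little with that library: Cryab was at 0.33 ± 0.14 with it and 0.31 ± 0.16 without it.

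Between 6 and 3 months in OPA1+/- none of the 19 passed by edgeR, where 0.0824% of all genes passed (13 of 15770), and 8 lens and 0 photoreceptor genes had an unadjusted p under 0.05, against 1427 of all genes. DESeq2 called 0 of them but gave no adjusted p for 9 of the 19. All 9 lens genes were lower at 6 months, with a median log2 fold change of -3.46, as were 9 of 10 photoreceptor genes, with a median of -1.63, beside -0.000427 over all genes. Cryaa averaged 1.31 ± 1.23 CPM at 6 months and 18.4 ± 26 CPM at 3 months (-3.85 ± 1.4, adjusted p 0.439 by edgeR, n = 4 each). Crybb3, the only tested lens gene whose ages did not overlap, averaged 1.61 ± 0.185 CPM at 6 months and 2.67 ± 0.949 CPM at 3 months (-0.75 ± 0.25, adjusted p 0.334 by edgeR, n = 4 each). How many of all genes also kept their ages apart was not counted. Cryab averaged 37.2 ± 3.03 and 51.3 ± 9.46 CPM at 6 and 3 months (-0.47 ± 0.14, adjusted p 0.334 by edgeR, n = 4 each). Without replicate 4 at 3 months, 7 of 8 lens genes were lower at 6 months (median -1.96), Crybb3 was at -0.45 ± 0.23 and Cryab at -0.46 ± 0.16, and the photoreceptor median was 0.04.

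In OPA1+/+ the ages differed in the opposite sense for photoreceptor genes. None of the 19 passed by edgeR, where 0.0507% of all genes passed (8 of 15770), and 0 of them had an unadjusted p under 0.05, against 1602 of all genes. DESeq2 called 0 of them but gave no adjusted p for 12 of the 19. Of the photoreceptor genes 9 of 10 were higher at 6 months (median log2 fold change 1.79, beside 0.00101 over all genes), and Prph2 averaged 4.5 ± 6.94 CPM at 6 months (SD, n = 3) and 0.822 ± 0.289 CPM at 3 months (SD, n = 4). Without replicate 1 at 6 months 9 of 10 were lower at 6 months, with a median of -0.81. All 9 lens genes were lower at 6 months, with a median of -0.71, and Cryaa was at -0.71 ± 1.72 (adjusted p 0.935 by edgeR). The difference between the 2 ages' genotype effects was tested as an interaction. None of the 19 passed by edgeR, where 0% of all genes passed (0 of 15770), and 0 lens and 3 photoreceptor genes had an unadjusted p under 0.05, against 1090 of all genes. DESeq2 called 21 genes overall and none of the listed genes, but gave no adjusted p for 17 of the 19. Gnat1 had an interaction of -3.74 ± 1.61, Pde6g of -2.83 ± 1.18 and Prph2 of -4.53 ± 2 (adjusted p 0.696, 0.676 and 0.702 by edgeR). The photoreceptor median was -3.38 with all libraries and 1.09 without the photoreceptor-rich pair, and the lens median -2.7 and -1.78.

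**Figure D5:**
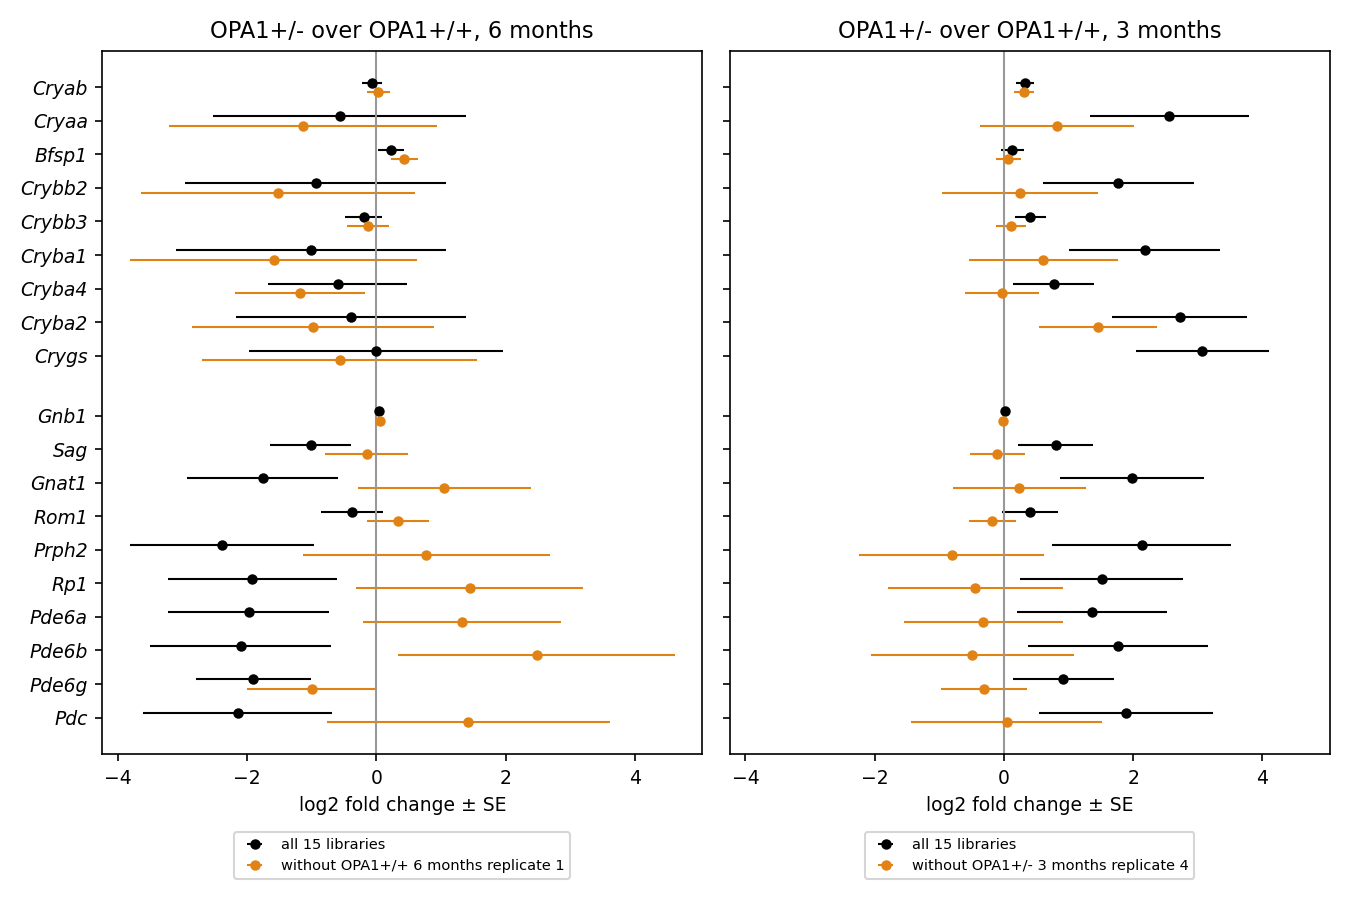
Log2 fold change of OPA1+/- over OPA1+/+ at 6 and 3 months, with SE, for the 19 tested genes, with all libraries and without the photoreceptor-rich library of that age. Gnat1 lies at -1.76 at 6 months and 1.98 at 3 months with all libraries, and at 1.05 and 0.24 without the library named in each panel, while Cryab and Gnb1 shift little (Crygs did not pass the filter at 3 months without the library).

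The same libraries were then left out to see how the calls over all genes moved, although 0 of the called genes were on a lens or retina list in any of these fits. Leaving lens and retina genes out of the test gave nearly the same counts, with 52 called between genotypes at 6 months and 7 between ages in OPA1+/+. Since no removed gene was among the calls, the counts could hardly change. They tell nothing about the part of lens or retina RNA in the calls. Leaving out replicate 1 of OPA1+/+ at 6 months, the library with 112 CPM of photoreceptor and 6.93 CPM of lens transcripts, gave 19 genes between genotypes at 6 months, 17 of them among the original 51. Between ages in OPA1+/+ it gave 169 genes, 98 higher and 71 lower at 6 months, with all 8 of the original calls among them. With the log2 lens and photoreceptor sums as covariates and all 15 libraries kept, the counts were 32 and 103, and without both photoreceptor-rich libraries 14 and 138. In OPA1+/+ 78 genes were called in all 3 of these fits. The fits are not independent: 2 of them leave out the same OPA1+/+ library, which leaves n = 2 in OPA1+/+ at 6 months. In the covariate fit that library holds by far the highest photoreceptor sum of its group (112 CPM against 11.3 and 11 CPM). All 3 fits can thus lower its weight, and the 78 shared calls are not support from separate fits. Leaving out replicate 4 of OPA1+/- at 3 months gave 4 genes between ages in OPA1+/-, 2 of them among the original 13, and 0 between genotypes at 3 months. Fewer libraries also change the filter, which then tests 15707 to 15996 genes, and other libraries moved the counts as well: without replicate 2 of OPA1+/+ at 6 months 2 genes were called between genotypes at 6 months and 0 between ages in OPA1+/+. Without replicate 3 of that group the counts were 34 and 0. The part of lens or photoreceptor RNA in these shifts was not tested.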

How the data were processed

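Bulk RNA sequencing of 15 mouse cornea libraries was analysed. The authors deposited 1 table of raw counts per library; per the file headers the counts came from featureCounts 2.0.1 over exons, grouped by gene, with strand setting 2 and GENCODE mouse release 28. The submitters' processing notes name mm10 and DESeq2, whereas that annotation release belongs to GRCm39. Coordinates are therefore given as the deposited files hold them (GRCm39), and promoter windows come from RefSeq on GRCm38.p6. No aligner is named in the sources used here. The recorded command sets no option to count reads that map to several places.

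Counts were tested in R 4.3.3 with edgeR 4.0.16 (TMM scaling, filterByExpr over the 4 groups, robust quasi-likelihood fit on all 15 libraries, 11 residual degrees of freedom). P-values were adjusted by the Benjamini-Hochberg method over the 15770 genes tested, with a threshold of 0.05. DESeq2 1.42.0 was an alternative. Intervals used scipy 1.17.1. Groups and replicate numbers follow the labels. Alternatives were other size factors, filters, fits on only the groups compared, a replicate block, leaving out libraries, leaving out lens and retina genes, and covariates for the summed levels.

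The 30 genes and all other lists were chosen with earlier results of these data known. Given library by library are, in each set, the 4 genes with the highest mean CPM per kilobase, Cryab and Gnb1, and any gene past the threshold. Outside the list the 5 genes nearest to each sum are given by correlation and range. Of these nearest genes, 4 for the photoreceptor sum are not reported here. The level of Pde6g by library, that of a few genes in the photoreceptor-rich pair and the parts of the lens sum were added after their values were seen.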

Additional observations from a re-analysis of the deposited data

Results flagged for a closer look

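In the groups of 4 libraries, single values stood further from the rest than a Dixon test at the 95% level allows in 13 of 63 combinations. A combination is a tested gene or a summed level in 1 group. The test takes values as normally distributed, whereas many CPM here were skewed or near the floor. A chance rate of 5% therefore cannot be assumed. Genes of one library are not independent, and the sums hold the same genes. The OPA1+/+ group at 6 months has 3 libraries and was not tested. In 8 of the 13 the value was that of replicate 4 in OPA1+/- at 3 months: Gnat1 at 30.6 CPM, Sag at 19.6 CPM, Prph2 at 12.1 CPM, Rp1 at 8.51 CPM, Pde6a at 7.57 CPM, Pde6b at 6.64 CPM, Pdc at 4.12 CPM and the photoreceptor sum at 115 CPM. In OPA1+/- at 6 months the values were the photoreceptor sum at 22.0 CPM and Pde6a at 1.8 CPM, both in replicate 4, and Cryba4 at 0.575 CPM in replicate 3. In OPA1+/+ at 3 months they were Rom1 at 3.49 CPM, the highest, in replicate 4 and Prph2 at 0.393 CPM, the lowest, in replicate 3. No lens gene stood apart in OPA1+/- at 3 months by this test; Cryaa there had 13.9 CPM in replicate 3 between 56.5 CPM in replicate 4 and 3.39 CPM in replicate 1.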

How the results depend on the processing

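No listed gene that an alternative tested was called; DESeq2 gave no adjusted p for 9 to 17 of the 19, fits on only the groups compared tested 11 to 16 listed genes, and leaving out lens and retina genes tested 0. Of all values compared, 808 were labelled the same, 86 moved and 25 turned their sign. For a gene's fold change, the same meant only that its sign and its side of the threshold held, whatever its size. A fold change could thus shrink strongly and still count among the 808. These also include counts of called listed genes that stayed at 0. Among the 11 genes followed under every alternative, between genotypes at 3 months Gnb1 (-0.01), Pde6g (-0.31), Prph2 (-0.81), Rom1 (-0.18) and Sag (-0.1) turned without replicate 4 of OPA1+/-, also without both photoreceptor-rich libraries; of the other tested genes Rp1, Pde6a, Pde6b and Cryba4 turned there too. At 6 months Gnat1 (1.05), Prph2 (0.77), Rom1 (0.33) and Cryab (0.03 or 0.02) turned without replicate 1 of OPA1+/+ or both (Rp1, Pde6a, Pde6b and Pdc too), and Cryaa (0.83) and Cryba1 (0.85) without replicate 2 of OPA1+/+. With 1 library left out at a time, 3-month values ran up to 0.03, 1.21, 2.51, 0.61 and 1.03 for Gnb1, Pde6g, Prph2, Rom1 and Sag, and 6-month values down to -2.28, -2.94, -0.65, -0.15, -1.24 and -1.9 for Gnat1, Prph2, Rom1, Cryab, Cryaa and Cryba1. The cause was not tested.

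Counts over all genes are given in the order genotype at 6 months, genotype at 3 months, age in OPA1+/-, age in OPA1+/+ and interaction. DESeq2's Wald test called 181, 43, 70, 117 and 21 genes, and no filter gave 140, 45, 83, 105 and 19. Fits on only the groups compared gave 197, 0, 34 and 2 for the first 4. Without the library with the most lens transcripts there were 0 at 3 months and 4 for age in OPA1+/-. Without both photoreceptor-rich libraries there were 14, 2, 6, 138 and 9, and with covariates 32, 0, 7 and 103 for the first 4. Leaving out 1 library at a time gave 2 to 84, 0 to 19, 1 to 24, 0 to 169 and 0 to 10. Same-numbered replicates showed little common deviation (correlations of -0.152 to 0.26), and the main fit did not pair them. Whether the numbers mark a shared batch was not tested. With a replicate block the counts were 48, 0, 3, 0 and 0.

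At these depths 3 counts are 0.165 to 0.256 CPM, so differences among the 11 untested genes outside the high libraries were mostly not detectable.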

Other observations

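Pigment cell and muscle genes were summed as well, and whether these sums followed the lens or photoreceptor sums was not tested. Summed pigment cell genes were at 5.65 CPM in replicate 4 of OPA1+/- at 3 months and 5.43 CPM in replicate 1 of OPA1+/+ at 6 months, in a range of 5.43 to 10 CPM over all libraries. Skeletal muscle genes stood high in another library, replicate 1 of OPA1+/+ at 3 months, where their sum was 4.56 CPM against 0.235 to 1.53 CPM elsewhere. There Acta1, skeletal actin, had 11 counts, Ckm, muscle creatine kinase, 9 counts, Tnnt3 21 counts and Myh4 4 counts. Mylpf, the other gene in this sum, was highest in replicate 2 of OPA1+/- at 3 months (1.15 CPM). Des, desmin, listed with smooth muscle and not in this sum, had 12 counts in replicate 1 of OPA1+/+ at 3 months. Myh11 and Acta2 of the smooth muscle list were highest in other libraries. That library had 16.7 CPM of lens and 13.3 CPM of photoreceptor transcripts, within the range of its group.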
